A study of Mus musculus with 39 samples.

Results

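Genes that carry, convert and read out thyroid hormone were followed in mouse liver under phenobarbital. They are Serpina7, Ttr, Dio1, Thra, Thrb and Klf9, and each was read from the probe sets whose only gene symbol in the platform annotation is its own. This gave 17 of 34945 single-symbol probe sets, and 6 of 18193 genes with such a probe set. RNA came from whole liver of male B6C3F1/Crl mice, a cross of C57BL/6 and C3H/He with no transgene or deletion named, which were 29 to 32 days old on arrival and had 5 days to settle in. The mice drank water with phenobarbital at 0.05% (w/v) for 1, 7, 28 or 91 days (5 arrays at each time) or were controls (4 arrays at day 1 and 5 at days 7, 28 and 91). Phenobarbital activates the nuclear receptor CAR in hepatocytes and is a tumour promoter of mouse liver that does not itself damage DNA. Whether the arrays of a group stem from different animals is not given by the labels, and p-values therefore measure the spread between these arrays.

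The liver makes the plasma proteins that bind thyroxine, and hepatocytes take the hormone up, remove iodine from it and attach glucuronic acid or sulfate to it before it leaves in bile. Type 1 deiodinase turns thyroxine into the active hormone T3, which binds nuclear receptors that sit on target genes together with RXR and a set of coactivators and corepressors. Thyroid hormone sets the rate of lipid synthesis, fatty acid oxidation and glucose production in liver, and in rodents phenobarbital is known for its effects on the clearance of thyroxine.

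Values are log2 signals as deposited, and a difference is phenobarbital minus control on that scale with its standard error (SE). P-values were computed in limma and adjusted by Benjamini-Hochberg over 12580 tested genes, and called means an adjusted p under 0.05. A gene with several probe sets was represented by the one with the highest mean. All 6 genes exceeded the array median in each of the 39 arrays. Cyp2b10, the classical target of CAR, averaged 13.55 to 14.04 in phenobarbital groups and 6.78 to 7.91 in control groups, and no array of one treatment reached the range of the other. Markers of hepatocytes averaged 14.11 to 14.16 in phenobarbital groups and 14.16 to 14.20 in control groups. The mean over all probe sets of an array was lower in phenobarbital arrays at each day, without overlap, by 0.0187 to 0.0246.

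Some arrays stood apart from the rest of their group. Exocrine pancreas genes averaged 11.03 in replicate 3 of the day 1 phenobarbital group, against 5.28 to 5.43 in the other 4 arrays of that group. Replicate 3 of the day 7 phenobarbital group had 10.56 as its mean of Kupffer cell genes and 8.09 as its mean of blood cell genes, against at most 9.38 and 6.42 in the other 4. Among the day 1 controls, replicate 4 had the lowest mean of endothelial genes, at 8.86 against 9.15 to 9.23 in the other 3, and replicate 2 the lowest mean over male-biased liver genes, at 9.26 against 10.83 to 12.78. Day 28 control replicate 2 has a sample identifier outside the range of the others. Day 91 control replicate 1 had a spike-in mean of 11.77, against 10.37 to 10.88 in the other 4. Its gap between 3' and 5' control probe sets for Actb and Gapdh was 0.870, against 0.445 to 0.557. This array was left out only when each array was left out in turn. The fits were repeated without both phenobarbital arrays, day 28 control replicate 2 and 1 of the day 1 controls, either replicate 4 or replicate 2, alternatives chosen after the data had been seen. In both, each of the 6 genes was called in the same direction or not called, as with all arrays, at each of the 4 days.

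At day 1, 1 of the 6 genes was higher (Dio1) and 2 were lower (Serpina7 and Klf9), where 15.8% of all tested genes were higher and 16.7% lower. At day 7, 1 was higher and 3 were lower (Serpina7, Klf9 and Thra), against 5.64% and 11.4% of all tested genes. The same counts of 1 higher and 3 lower held at day 28, against 11.2% and 18.1%, and the 3 were again Serpina7, Klf9 and Thra. At day 91, 1 was higher (Dio1) and 2 were lower (Serpina7 and Thra), against 4.62% and 16.1%. Ttr and Thrb were not called at any day. The median difference of the 6 genes was -0.14, -0.18, -0.23 and -0.15 at days 1, 7, 28 and 91, and that of all tested genes was 0.01, -0.05, -0.02 and -0.07. Phenobarbital and control arrays did not overlap for 3, 3, 3 and 2 of the 6 genes at the 4 days, where 25.9%, 11.2%, 15.4% and 11.3% of all tested genes did not overlap.

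**Figure D1:**
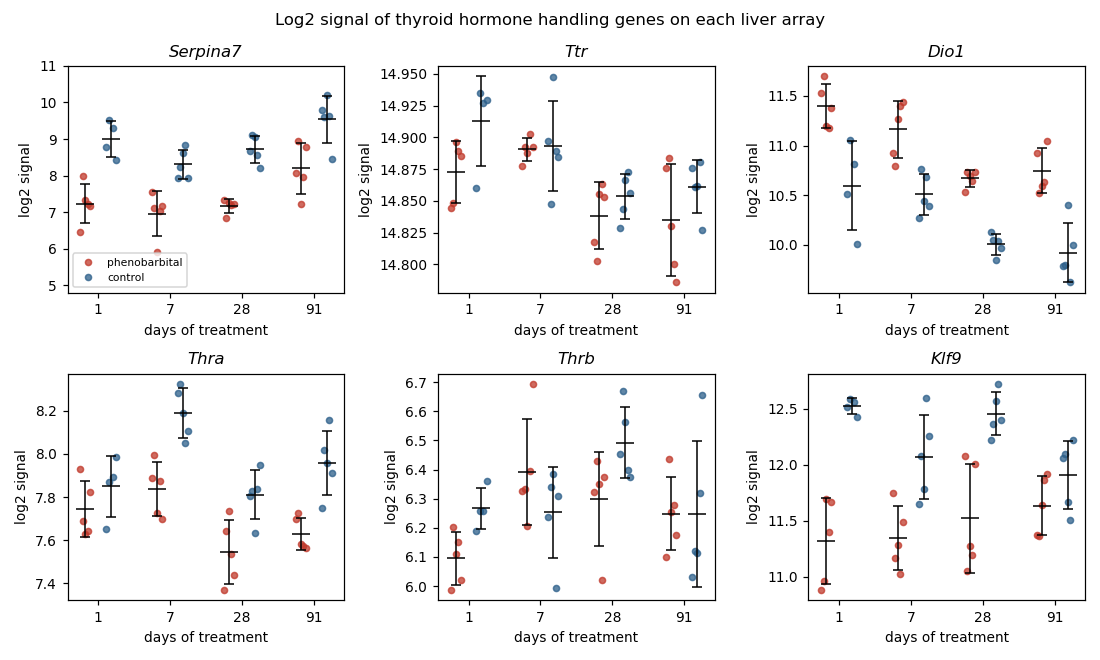
Log2 signal of the representative probe set of each of the 6 genes (vertical axes, which differ in range) by days of treatment (horizontal axes), with phenobarbital arrays in red left of control arrays in blue, 1 point per array, and black bars for the mean and SD. Serpina7 lies lower and Dio1 higher in phenobarbital arrays at each day, with an overlap only for Serpina7 at day 91, whereas the values of Ttr span only 14.79 to 14.95.

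**Figure D2:**
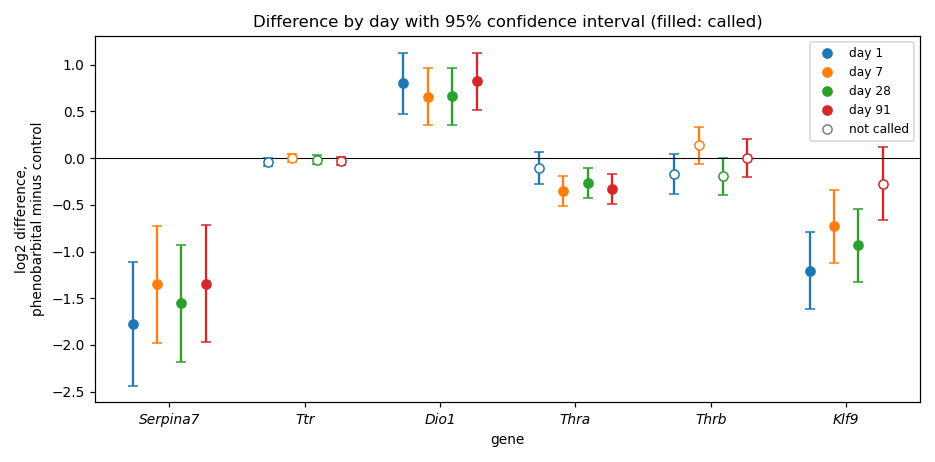
Difference between phenobarbital and control on the log2 scale (vertical axis) for each gene (horizontal axis) at days 1, 7, 28 and 91 (colours), with 95% confidence intervals from limma, filled where the gene was called. Serpina7 differed by -1.77 to -1.34, Dio1 by 0.66 to 0.82, and the difference of Klf9 was -1.20 at day 1 and -0.28 at day 91.

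The start regions of the 3 genes with the largest differences are shown because Serpina7 and Klf9 were lower while Dio1 was higher in the same livers. Each window runs 5′ to 3′ on the strand of the gene and holds 250 bases before a transcript start listed by RefSeq and the first bases of the transcript, on build GRCm38.p6. Serpina7 lies on the minus strand at chrX:139085187-139085486, Dio1 on the minus strand at chr4:107307119-107307418, and Klf9 on the plus strand at chr19:23140976-23141275. Capitals mark the letters TATAAA, searched on both strands as the core of a TATA box.
Serpina7: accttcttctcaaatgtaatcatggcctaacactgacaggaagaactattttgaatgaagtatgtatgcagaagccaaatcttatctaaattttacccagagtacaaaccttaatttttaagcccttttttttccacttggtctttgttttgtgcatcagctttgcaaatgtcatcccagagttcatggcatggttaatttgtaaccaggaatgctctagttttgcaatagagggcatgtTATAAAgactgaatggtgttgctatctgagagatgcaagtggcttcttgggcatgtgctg
Dio1: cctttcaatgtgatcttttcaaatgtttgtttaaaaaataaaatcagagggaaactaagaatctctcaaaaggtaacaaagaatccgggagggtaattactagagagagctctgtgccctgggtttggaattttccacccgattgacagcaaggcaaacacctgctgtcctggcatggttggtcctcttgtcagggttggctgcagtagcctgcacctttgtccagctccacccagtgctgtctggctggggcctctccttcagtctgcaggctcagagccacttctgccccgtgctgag
Klf9: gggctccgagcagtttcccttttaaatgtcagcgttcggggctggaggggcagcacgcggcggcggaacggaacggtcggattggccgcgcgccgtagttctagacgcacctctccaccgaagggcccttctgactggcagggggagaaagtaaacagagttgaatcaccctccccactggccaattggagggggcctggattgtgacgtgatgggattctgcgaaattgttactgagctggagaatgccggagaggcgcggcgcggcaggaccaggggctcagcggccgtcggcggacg
TATAAA begins 10 bases before the listed start of Serpina7 and 27 bases before another listed start that lies 17 bases further in, and it is in neither of the other windows. Of all 32851 windows of this length, 13.6% hold it on 1 strand or the other. AGGTCA, the half-site that thyroid hormone receptors and CAR both bind, was searched on both strands and is in none of the 3 windows, whereas 16.3% of all windows hold it. A pair of such half-sites in the same direction and 4 bases apart is in none of the 3 either, and 0.0152% of all windows hold it. Of the 2 windows listed for Thrb, the one at chr14:17660710-17661009 on the plus strand holds AGGTCA, which begins 184 bases before the start. The share of G and C was 38.3% for Serpina7, 49.7% for Dio1 and 63.3% for Klf9, against a median of 52.7% over all windows. A match or its absence in these letters is a description of the window and says nothing of binding.

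Among the plasma carriers, Serpina7 fell at all 4 days, while Ttr and albumin were not called at any by their representative probe sets. Serpina7 encodes thyroxine-binding globulin, the carrier with the highest affinity for thyroxine, and has 1 probe set (1438617_at). At day 1 it had log2 signals of 6.46, 7.99, 7.34, 7.23 and 7.17 in phenobarbital arrays, against 8.77, 9.52, 9.31 and 8.43 in controls. All 5 phenobarbital arrays lay below all 4 controls. The difference was -1.77 (SE 0.33, adjusted p = 9.46e-05), or 3.41-fold lower.

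At day 7 Serpina7 had 7.56, 7.12, 5.92, 7.02 and 7.17 in phenobarbital arrays, against 7.94, 8.23, 8.61, 8.83 and 7.93 in controls. The groups did not overlap, and the difference was -1.35 (SE 0.31, adjusted p = 0.00254). The lowest value, 5.92, was that of replicate 3, the array with high Kupffer and blood cell genes. Without that array the difference was -1.09, and it was called (adjusted p = 0.0126). At day 28 the values were 7.32, 6.83, 7.24, 7.20 and 7.23 in phenobarbital arrays, against 8.68, 9.10, 9.05, 8.56 and 8.22 in controls. Again no array overlapped, and Serpina7 was 2.94-fold lower (difference -1.55, SE 0.31, adjusted p = 0.000342).

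At day 91 Serpina7 had 8.07, 8.94, 7.22, 7.97 and 8.77 in phenobarbital arrays, against 9.79, 9.61, 10.22, 9.62 and 8.46 in controls. Here the groups overlapped, because control replicate 5 lay below 2 of the phenobarbital arrays. The difference was -1.34 (SE 0.31, adjusted p = 0.00265), which is 2.54-fold lower. The size of the difference was not shown to change with time, with an adjusted p of 0.802 in an F test over the 4 days, in which 35.1% of all tested genes were called. Serpina7 also moved in the controls themselves. Their means were 9.01 ± 0.50 (SD, n = 4) at day 1, 8.31 ± 0.40 at day 7, 8.72 ± 0.36 at day 28 and 9.54 ± 0.65 at day 91 (SD, n = 5 each). An F test over the control days called this (adjusted p = 0.00655, with 66% of all tested genes called), while no single pair of days that was tested was called. Days 7 and 91, which had the lowest and highest control means, were not tested against each other. In whole-liver RNA, fewer cells that express a gene and less of its RNA per cell cannot be told apart.

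Ttr encodes transthyretin, a carrier of thyroxine that also binds retinol-binding protein, and was among the brightest signals on the array. Its representative probe set (1454608_x_at) ranged from 14.79 to 14.95 over the 39 arrays, within 0.331 of the highest value on each array. The size of a difference this close to the top of the scale is uncertain. Means were 14.87 ± 0.024 in phenobarbital arrays (SD, n = 5) and 14.91 ± 0.035 in controls (SD, n = 4) at day 1, and 14.84 ± 0.044 in phenobarbital arrays and 14.86 ± 0.021 in controls at day 91 (SD, n = 5 each). The differences were -0.04, -0.0027, -0.02 and -0.03 at days 1, 7, 28 and 91, and their 95% confidence intervals lay between -0.09 and 0.04. With arrays centred on their median these small differences took the other sign at all 4 days, and after quantile normalization at day 7.

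The 4 probe sets of Ttr did not all give the same result. At day 91 probe set 1451580_a_at had 14.62 to 14.70 in phenobarbital arrays, against 14.76 to 14.82 in controls, with no overlap (difference -0.13, SE 0.03, adjusted p = 0.000797 over all probe sets). At day 1 probe set 1455913_x_at was lower by a difference of -0.14 (SE 0.04, adjusted p = 0.00973), with overlap. Of the 16 results of 4 probe sets at 4 days these 2 were called, both lower, where 15% and 11.8% of all probe sets were lower at days 1 and 91. Albumin, which binds thyroxine loosely and in bulk, differed by -0.01, 0.02, -0.02 and -0.01 at the 4 days, with no call.

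Dio1, the type 1 deiodinase and a selenoprotein, rose at all 4 days and its groups never overlapped. It has 1 probe set (1417991_at). At day 1 it had 11.54, 11.70, 11.20, 11.18 and 11.38 in phenobarbital arrays, against 10.51, 11.05, 10.81 and 10.01 in controls. The phenobarbital arrays had an SD of 0.22 and the controls of 0.45, and the lowest control was replicate 4. The difference was 0.80 (SE 0.16, adjusted p = 0.000231), and without that control it was 0.60 (adjusted p = 0.00356). In the same order, the mean over male-biased liver genes in the controls was 12.15, 9.26, 10.83 and 12.78. Its part in the spread of Dio1 was not tested.

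At day 7 Dio1 had 10.93, 10.79, 11.26, 11.40 and 11.44 in phenobarbital arrays, against 10.27, 10.76, 10.44, 10.68 and 10.39 in controls (difference 0.66, SE 0.15, adjusted p = 0.00256). The lowest phenobarbital array was close to the highest control. At day 28 the values were 10.54, 10.74, 10.70, 10.65 and 10.73 in phenobarbital arrays, against 10.13, 10.05, 9.85, 10.04 and 9.96 in controls (difference 0.66, SE 0.15, adjusted p = 0.00129). At this day both groups were tight and well apart. At day 91 phenobarbital arrays had 10.93, 10.52, 10.60, 10.64 and 11.05, against 9.79, 9.79, 10.40, 9.63 and 9.99 in controls, a 1.77-fold rise (difference 0.82, SE 0.15, adjusted p = 0.00022).

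The effect on Dio1 was not shown to change with time (F test, adjusted p = 0.836), while its level fell with time in controls. The mean was 11.40 at day 1 and 10.75 at day 91 in phenobarbital arrays, and 10.60 at day 1 and 9.92 at day 91 in controls. Among controls the difference of day 91 from day 1 was -0.68 (SE 0.16, adjusted p = 0.00117), that of day 28 from day 1 was -0.59 (adjusted p = 0.00678), and 36.2% and 20.5% of all tested genes were called in these comparisons. The control mean over male-biased liver genes was 11.26 at day 1 and 13.04 at day 91, and its part in the fall of Dio1 was not tested. The change over time within phenobarbital arrays was not tested.

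Of the hormone receptors, Thra was called modestly lower at days 7, 28 and 91 by 1 of its 3 probe sets, and Thrb was not called. Thra encodes the receptor TRα and, by splicing, a form that does not bind T3. Its representative probe set (1443952_at) had 7.93, 7.69, 7.63, 7.64 and 7.82 in phenobarbital arrays at day 1, against 7.65, 7.87, 7.89 and 7.98 in controls. These overlapped and were not called (difference -0.11, adjusted p = 0.352). At day 7 it had 7.89, 7.997, 7.73, 7.88 and 7.70 in phenobarbital arrays, against 8.28, 8.32, 8.19, 8.05 and 8.11 in controls. All phenobarbital arrays were below all controls, and the difference was -0.35 (SE 0.08, adjusted p = 0.00239). With the mean of the spike-in controls as a covariate it was -0.14 and not called (adjusted p = 0.440). That mean was 10.85 in phenobarbital arrays and 9.96 in controls at day 7, without overlap (exact permutation p = 0.00794, adjusted p = 0.0317 over 4 days), so it went with treatment at that day. In the other direction, it was 10.69 in phenobarbital arrays and 10.94 in controls at day 1 (exact permutation adjusted p = 0.0317). At day 28 it was 10.86 in phenobarbital arrays and 11.21 in controls (adjusted p = 0.0423), and at day 91 11.13 and 10.90 (adjusted p = 0.413).

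At day 28 Thra had 7.37, 7.64, 7.74, 7.54 and 7.44 in phenobarbital arrays, against 7.80, 7.83, 7.63, 7.84 and 7.95 in controls, with overlap (difference -0.27, SE 0.08, adjusted p = 0.0123). It was no longer called after quantile normalization (-0.17, adjusted p = 0.121) or when the 3 probe sets were averaged (-0.12, adjusted p = 0.152). At day 91 it had 7.70, 7.72, 7.58, 7.58 and 7.57 in phenobarbital arrays, against 7.75, 8.02, 7.96, 8.16 and 7.91 in controls (difference -0.33, SE 0.08, adjusted p = 0.00442). The groups did not overlap, although the highest phenobarbital array, at 7.72, was close to the lowest control, at 7.75. The effect on Thra was not shown to change with time (F test over the 4 days, adjusted p = 0.267, with 35.1% of all tested genes called). Its effect at day 7 minus that at day 1 was -0.25 and not called (adjusted p = 0.130). The other probe sets of Thra were not called at any day. They differed by -0.19, -0.29, -0.18 and -0.16 for 1426997_at and by 0.11, -0.16, 0.09 and -0.12 for 1454675_at, so the last took both signs.

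Stellate cell markers moved in the same direction as Thra at the later days. The mean of 6 such genes ranged from 8.42 to 8.87 in phenobarbital arrays and from 8.99 to 9.12 in controls at day 28, and from 8.55 to 8.75 in phenobarbital arrays and from 8.80 to 9.02 in controls at day 91 (exact permutation p = 0.00794 at each, adjusted p = 0.0159 over 4 days). Of the 6 markers, all of which passed the filter on dim genes, 3 were lower at day 28 and 2 at day 91. Of 5 tested endothelial markers 3 and 2 were lower at these days, where 18.1% and 16.1% of all tested genes were lower. The endothelial mean differed by -0.19, -0.23, -0.17 and -0.14 at days 1, 7, 28 and 91 (exact permutation adjusted p from 0.127 to 0.198). The part of the stellate and endothelial markers in the result for Thra was not tested. At day 7 the stellate mean was 9.47 in phenobarbital arrays and 9.57 in controls (exact permutation adjusted p = 0.370). At day 28 the gap between 3' and 5' control probe sets for Actb and Gapdh, which reflects RNA integrity and labelling, was 0.461 in phenobarbital arrays and 0.663 in controls, without overlap (exact permutation adjusted p = 0.0317 over 4 days). Nr1d1, a clock gene that overlaps Thra on the opposite strand, was not called at any day, with differences of 0.08, 0.15, 0.12 and -0.14. Among controls Thra was higher at day 7 than at day 1, by a difference of 0.34 (adjusted p = 0.00272), and lower at day 28 than at day 7 (-0.38, adjusted p = 0.000269). These comparisons called 35.2% and 46.3% of all tested genes. The spike-in mean of the controls was 10.94, 9.96 and 11.21 at days 1, 7 and 28, and its part in these changes was not tested.

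Thrb encodes TRβ, the main T3 receptor of hepatocytes, and was measured by a single dim probe set (1422202_at) near the 59th percentile of the array. It ranged from 5.99 to 6.203 in phenobarbital arrays and from 6.19 to 6.36 in controls at day 1. At day 7 it ranged from 6.21 to 6.69 in phenobarbital arrays and from 5.99 to 6.38 in controls. The ranges overlapped at both days. At day 28 it ranged from 6.02 to 6.43 in phenobarbital arrays and from 6.38 to 6.67 in controls, and at day 91 from 6.10 to 6.44 in phenobarbital arrays and from 6.03 to 6.65 in controls, again with overlap. The differences were -0.17, 0.14, -0.19 and 0.00 (SE 0.10 at each day), with adjusted p = 0.208, 0.353, 0.135 and 0.996. Their 95% confidence intervals lay between -0.39 and 0.34, so changes within these bounds were not excluded. Exact permutation tests, not adjusted for the number of genes, gave p = 0.0238 at day 1 and p = 0.0397 at day 28.

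Klf9 encodes a zinc finger transcription factor whose gene is induced by T3 and by glucocorticoids, and it fell at days 1, 7 and 28 but was not called at day 91. Its representative probe set (1456341_a_at) had 10.88, 10.96, 11.70, 11.40 and 11.67 in phenobarbital arrays at day 1, against 12.52, 12.59, 12.57 and 12.43 in controls. The controls were tight and all phenobarbital arrays lay well below them (difference -1.20, SE 0.20, adjusted p = 3.03e-05), a 2.30-fold fall. At day 7 it had 11.75, 11.17, 11.29, 11.03 and 11.49 in phenobarbital arrays, against 11.65, 12.08, 11.78, 12.60 and 12.26 in controls. Of the phenobarbital arrays, 1 lay above the lowest control, and the difference was -0.73 (SE 0.19, adjusted p = 0.00798).

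At day 28 Klf9 had 12.08, 11.06, 11.27, 11.19 and 12.01 in phenobarbital arrays, against 12.23, 12.36, 12.57, 12.72 and 12.40 in controls (difference -0.93, SE 0.19, adjusted p = 0.000488). The phenobarbital arrays fell into 3 low and 2 high values, and even the high ones lay below all controls. At day 91 it had 11.37, 11.37, 11.64, 11.87 and 11.92 in phenobarbital arrays, against 12.07, 12.09, 11.67, 11.51 and 12.22 in controls. The groups overlapped, and the difference of -0.28 was not called (SE 0.19, adjusted p = 0.321).

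The effect at day 91 was weaker than at day 1 in a test of that difference itself. The change in effect was 0.93 (SE 0.28, adjusted p = 0.0126), in a comparison where 30.4% of all tested genes were called. From day 28 to day 91 it was 0.66 and not called (adjusted p = 0.0762, with 21.7% of all tested genes called). From day 7 to day 91 it was 0.45 and not called (adjusted p = 0.536). The mean of Klf9 was 11.32 at day 1 and 11.63 at day 91 in phenobarbital arrays, and 12.53 at day 1 and 11.91 at day 91 in controls. Among controls day 91 was lower than day 1 (difference -0.62, adjusted p = 0.0175), and the change within phenobarbital arrays was not tested. The F test over all 4 days gave an adjusted p of 0.0455, which passed 0.05 in only 21 of 39 fits that left out 1 array. Without probe sets that match several transcripts, Klf9 is represented by 1428288_at, and its change in effect from day 1 to day 91 was 0.45 and not called (adjusted p = 0.156).

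Klf9 has 7 probe sets, which is the most of the 6 genes. At day 1, 6 of them were lower, where 15% of all probe sets were lower, and the called differences ran from -1.43 to -0.44. At day 7, 3 were lower (1428288_at, 1436763_a_at and 1456341_a_at), against 7.57% of all probe sets. At day 28, 5 were lower, by -1.15 to -0.71, and at day 91 none was, against 15% and 11.8% of all probe sets. At day 91 the differences of the 7 lay between -0.40 and 0.04, and the smallest adjusted p was 0.0881. Probe set 1452723_at, which lay below the array median on all 39 arrays, was called at no day, and 1436952_at was called at day 1 alone.

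**Figure D3:**
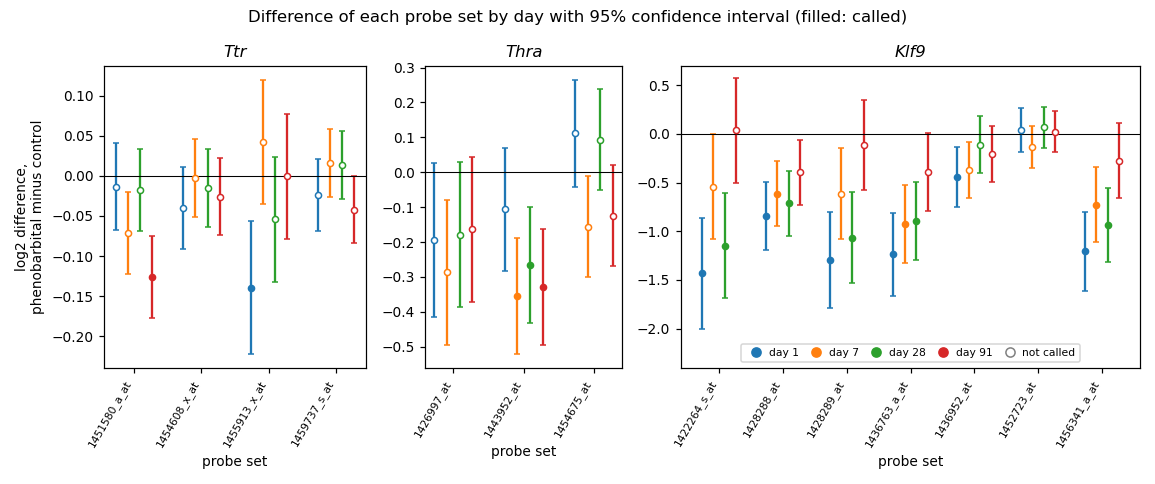
Difference between phenobarbital and control on the log2 scale (vertical axes, which differ in range) for each probe set (horizontal axes) of Ttr, Thra and Klf9 at days 1, 7, 28 and 91 (colours), with 95% confidence intervals, filled where called over all single-symbol probe sets. For Klf9, 6 of 7 probe sets were lower at day 1 and none was called at day 91, and for Thra 1 probe set carried all the calls.

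Other steps of the pathway were read from lists of genes, described here by counts beside the shares of all tested genes, which were 15.8% higher and 16.7% lower at day 1, 5.64% and 11.4% at day 7, 11.2% and 18.1% at day 28, and 4.62% and 16.1% at day 91. Of 6 tested genes for uptake of the hormone across the cell membrane, 1 was higher and 1 lower at day 1, 3 were higher and 1 lower at day 7, and none was called at days 28 and 91. The day 1 counts match the shares of all tested genes. Slco1a4, which imports thyroxine and T3 among other organic anions, differed by 0.94 at day 1 (adjusted p = 0.00454) and by 1.31 at day 7 (adjusted p = 0.000244). Slco1a1, a related importer that is higher in male liver, differed by -1.22 (adjusted p = 0.0425) and -1.31 (adjusted p = 0.0354). The mean over 6 male-biased genes, Slco1a1 among them, was 10.33 in phenobarbital arrays and 11.26 in controls at day 1, and 11.65 in phenobarbital arrays and 12.45 in controls at day 7 (exact permutation adjusted p = 0.339 at each), and its part in the result for Slco1a1 was not tested. With 4 arrays left out as described above, none of the 6 was called at day 1 where day 1 control replicate 4 was among them, 1 was higher and 1 lower where replicate 2 was, and in both 3 were higher and none lower at day 7. The median difference of the list was 0.10, 0.14, -0.02 and 0.03 at the 4 days.

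Of 7 tested genes for deiodination and for making selenoproteins, 2 were higher and none lower at day 1, and 4 were higher and none lower at day 7, where 15.8% and 5.64% of all tested genes were higher. Eefsec, the elongation factor that delivers selenocysteine, rose at day 1 by 0.56 (adjusted p = 2.59e-05) and at day 28 by 0.46 (adjusted p = 0.00022), and was lower at day 91 by a difference of -0.27 (adjusted p = 0.0312). Dio2, a second activating deiodinase, had a small rise of 0.26 at day 7 (adjusted p = 0.0312), with means of 6.48 in phenobarbital arrays and 6.22 in controls. At day 28, 2 were higher and 1 lower, and at day 91 Dio1 was the 1 higher gene and Eefsec the 1 lower gene, where 11.2% and 4.62% of all tested genes were higher and 18.1% and 16.1% lower. The count of 1 lower gene at day 91 held in 11 of 15 other settings and in 33 of 39 fits that left out 1 array, and was 0 in the rest. The count of 1 lower gene at day 28 held in 7 of 15 other settings, which gave 0 to 3.

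Of these lists, conjugation held the most higher genes at each day. Of 8 tested sulfotransferases and Ugt2b glucuronosyltransferases, 5, 6, 5 and 6 were higher at days 1, 7, 28 and 91, where 15.8%, 5.64%, 11.2% and 4.62% of all tested genes were higher, and none was lower. With 4 arrays left out, 4 were higher and 1 lower at day 1 where control replicate 4 was among them, and 5 higher and 1 lower where replicate 2 was. The median difference was 0.41, 0.60, 0.41 and 0.43. Sult1c2 rose by 0.89, 1.66, 1.20 and 1.28 (adjusted p from 1.14e-11 to 1.03e-05). Sult1d1 rose by 0.68 at day 1, 1.22 at day 7 and 0.76 at day 28, and Ugt2b35 rose by 0.84 at day 91 (adjusted p = 2.64e-08). Sulfotransferases attach sulfate to phenols and amines, and Ugt2b enzymes attach glucuronic acid to steroids and drugs. The Ugt1a enzymes that glucuronidate thyroxine were not analysed here. Closely related Ugt2b and Sult genes can share probes, so their values may not be separate.

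Of 12 tested receptors, RXR partners and cofactors, none was higher and 5 lower at day 1, 2 were higher and 1 lower at day 7, none was higher and 5 lower at day 28, and none was higher and 2 lower at day 91. Of all tested genes 16.7%, 11.4%, 18.1% and 16.1% were lower at these days, so the counts of lower genes at days 7 and 91 lay at or near that share. Beside the 2 higher genes at day 7, 5.64% of all tested genes were higher. That count of 2 held in 9 of 15 other settings, which gave 0 to 2. The counts of 5 lower genes at days 1 and 28 were 2 and 2 when probe sets were averaged per gene, 3 and 3 with the 3' minus 5' difference as a covariate, and the count at day 28 was 3 after quantile normalization. At day 1 the largest called differences were those of the coactivator Ncoa2 (-0.47, adjusted p = 0.00122) and of Tbl1x, a subunit of the corepressor complex (-0.44, adjusted p = 0.000212). At day 7 Crym, a cytosolic protein that binds T3, was higher by 0.40 (adjusted p = 0.029). At day 28 Med1, the Mediator subunit that contacts nuclear receptors, was lower (-0.35, adjusted p = 0.000369), as was Tbl1x (-0.34, adjusted p = 0.0021). Rxra, the partner of both TR and CAR, was lower at day 91 (-0.39, adjusted p = 0.00429).

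Of 12 tested genes known as T3 targets of liver, 2 were higher and 3 lower at day 1 (15.8% and 16.7% of all tested genes), 3 higher and 2 lower at day 7 (5.64% and 11.4%), 4 higher and 4 lower at day 28 (11.2% and 18.1%), and 1 higher and 1 lower at day 91 (4.62% and 16.1%). The counts at days 1 and 91 lay near these shares. The list holds Dio1 and Klf9 themselves, which are both induced by T3 and here went opposite ways. Thrsp, a promoter of lipogenesis, rose by 0.76 at day 7 (adjusted p = 0.00455) and by 1.42 at day 28 (adjusted p = 9.71e-07). Pck1, the enzyme that commits carbon to gluconeogenesis, fell at day 28 (-1.01, adjusted p = 0.0178), and Cpt1a, which admits fatty acids to mitochondria, fell at day 91 (-0.39, adjusted p = 0.0267). Several of these genes also respond to insulin, fasting or glucocorticoids.

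Klf9 is also a glucocorticoid and clock-linked gene, so 12 such genes were read beside it. None was called at days 1 and 91, 1 was lower at day 7 (Tsc22d3, a glucocorticoid-induced leucine zipper, -0.85, adjusted p = 0.0205) and 1 at day 28 (Zbtb16, a glucocorticoid-induced zinc finger factor, -1.12, adjusted p = 0.0173), where 11.4% and 18.1% of all tested genes were lower. With 4 arrays left out, 2 of the 12 were lower at day 1 where control replicate 4 was among them and none where replicate 2 was, and 1 was lower at day 91 in both. Their part in the fall of Klf9 was not tested.

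**Figure D4:**
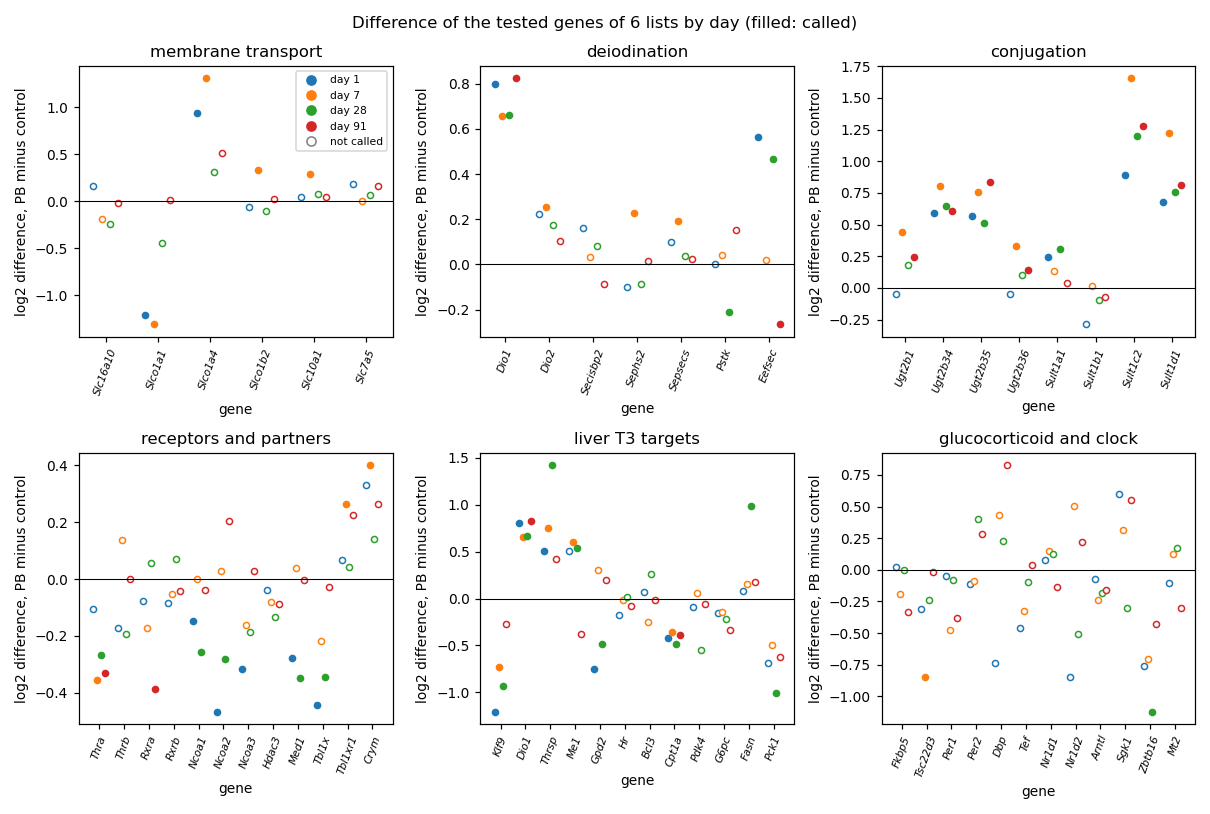
Difference between phenobarbital and control on the log2 scale (vertical axes, which differ in range) for each tested gene (horizontal axes) of 6 lists at days 1, 7, 28 and 91 (colours), filled where called. Conjugation genes lie mostly above 0, with 5 to 6 of 8 higher at each day, and the liver T3 targets scatter on both sides, with 4 higher and 4 lower at day 28.

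Genes whose levels ran most like each member over the 39 arrays were found by Pearson correlation among all tested genes. These values are a description, since the arrays share treatment and day groups and every gene that responds to treatment takes part. For Serpina7 they were Wasf1 (r = 0.874), Ube2e2 (0.869) and Sco1 (0.845). For Dio1 they were Prom1 (r = 0.905), Ttc39a (0.889) and Lect2 (0.861). Prom1 differed by 2.55, 2.76, 2.43 and 2.04 at the 4 days, more than Dio1 itself on the log2 scale. For Klf9 they were Ceacam1 (r = 0.849), Rab3gap1 (0.848) and Rbbp4 (0.845), and Ceacam1 differed by -1.44, -0.24, -1.13 and 0.01. For Thra they were Erf (r = 0.835), Hs3st6 (0.823) and Hbegf (0.810), for Ttr Cc2d2a (0.735), Scpep1 (0.726) and Tceal1 (0.724), and for Thrb Nelfa (0.564), Ralgapa1 (0.563) and Golph3l (0.527). The dim Thrb had the lowest of these correlations.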

How the data were processed

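The deposited values are log2 signals of 39 Affymetrix mouse arrays with 45101 probe sets, made from whole-liver RNA with a 3' IVT labelling procedure, per the labels' protocols. The submitters' processing notes name GCOS. How the probes were summarised and the arrays normalised is not given in the sources used here, and the values were taken unchanged. Groups follow the treatment and duration in the labels, which also mention 28 days of dosing and kidney in their protocols. The labels give no batch or pairing, and replicate numbers are accession order.

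Each gene was represented by its brightest single-symbol probe set and was tested when above the array median on at least 4 arrays, which left 12580 of 18193 genes. One mean per group was fitted in limma 3.58.1 under R 4.3.3, with a mean-dependent prior variance (31 residual degrees of freedom, 4.46 prior ones). It compared phenobarbital with control at each day, that effect between days, and the control days with each other. Probe sets were fitted the same way without a filter, over 34945. P-values are 2-sided, adjusted by Benjamini-Hochberg within a comparison. Array measures were compared by exact permutation tests. The comparison of phenobarbital with control at each day was also run on simulated arrays with known changes. The other tests were not run on simulated data.

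The members and gene lists were chosen with earlier results of these data known. In each list the 2 called genes with the largest change at each day are named, and for each member the 3 genes most correlated with it. Other normalizations, filters, probe set summaries, variance models and covariates and leaving out each array were tried. The number of arrays limits the precision.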

Additional observations from a re-analysis of the deposited data

Results flagged for a closer look

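The effect of phenobarbital on Klf9 at day 91 differed from that at day 1 by 0.93 on the log2 scale (adjusted p = 0.0126), as described above.

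An array far from the rest of its group was seen in 7 of 136 groups of probe set values, and chance gives about 1 in 20. Serpina7 in day 28 phenobarbital replicate 2 was 6.83, against 7.20 to 7.32 in the other 4. Thrb in day 28 phenobarbital replicate 4 was 6.02, against 6.32 to 6.43. For Ttr, probe set 1454608_x_at in day 1 control replicate 1 was 14.86, against at least 14.93 in the other 3, and 1451580_a_at in day 91 control replicate 3 was 14.82, against at most 14.77. Probe set 1455913_x_at of Ttr was 14.15 in day 1 phenobarbital replicate 1, against at least 14.35, and 14.49 in day 28 control replicate 4, against at most 14.41. The dim Klf9 probe set 1452723_at was 4.66 in day 28 control replicate 1, against at least 5.10.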

How the results depend on the processing

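Of 376 values of a member at a day under other settings, 365 kept their direction and their side of the threshold, as did 928 of 936 with 1 array left out. Serpina7, Dio1 and Klf9 kept theirs at all 4 days in each setting run. Quantile normalization gave Ttr at day 7 as 0.0068 and Thra at day 28 as -0.17. Arrays centred on their median gave Ttr at days 1, 7, 28 and 91 as 0.0023, 0.037, 0.0186 and 0.0204. The mean of all probe sets gave Ttr at day 1 as -0.054 (called, adjusted p = 0.0294) and Thra at day 28 as -0.12. The spike-in mean as a covariate gave Thra at day 7 as -0.14. Exact permutation tests, not adjusted, took Thrb at day 1 (-0.17) and day 28 (-0.19) under 0.05. The Klf9 effect at day 91 minus day 1 was 0.45 without probe sets ending in _s_at, _x_at or _a_at. The causes were not tested. Leaving out 1 array gave Ttr at day 7 from -0.014 to 0.011 and Thrb at day 91 from -0.053 to 0.103. No paired analysis was possible because the labels give no pairing of phenobarbital and control arrays.

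The adjusted p of the Klf9 F test over the 4 days was 0.0542 without a filter, 0.0714 with the mean of probe sets, 0.414 without probe sets ending in _s_at, _x_at or _a_at, 0.0585 with a robust prior, 0.134, 0.15 and 0.065 with the spike-in mean, the 3' minus 5' difference or the male-biased mean as a covariate, 0.0516 with 4 arrays left out that include day 1 control replicate 2, and up to 0.0982 with 1 array left out.

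Among all tested genes the calls numbered 1982 higher and 2106 lower at day 1, 709 and 1429 at day 7, 1403 and 2276 at day 28, and 581 and 2023 at day 91. Counts that moved by over 1.5 times were 2350 higher at day 28 and 1221 lower at day 91 after quantile normalization, 879 lower at day 7 and 1076 lower at day 91 with median centring, 2164 and 966 higher at days 28 and 91 without a filter, 1245 lower at day 91 with the stricter filter, and 1017 higher and 3040 lower at day 91 with array weights. Adding the spike-in mean made them 351 and 500 at day 7 and 796 and 1390 at day 28, and adding the 3' minus 5' difference made them 411 and 616 at day 28. Higher genes were 48.5%, 33.2%, 38.1% and 22.3% of the calls at the 4 days, 62.4%, 45.3%, 57.9% and 38.9% after quantile normalization, and 63.0%, 51.4%, 53.4% and 42.4% with median centring.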
